A study of Mus musculus with 6 samples.

Results

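The 10 genes described here mark and build surface epithelium, the sheet of joined cells that covers the embryo. They are 3 keratins of simple epithelium (Krt8, Krt18 and Krt19), 3 surface adhesion proteins (Cdh1, Cdh3 and Epcam) and 4 transcription factors (Grhl2, Grhl3, Trp63 and Tfap2c). The genes were chosen with earlier results of these data known. Members were taken by name, through every probe set that the array's annotation assigns to just one of them. All 10 had such a probe set, 22 probe sets in all out of 45101 in the table, and they stand for 10 of the 18193 genes tested. The study sorted YFP+ cells by flow cytometry from mouse embryos at embryonic day 9 and hybridised their RNA to 6 Affymetrix arrays. The 3 mutant samples came from embryos with Isl1-cre, Rosa-YFP and a β-catenin allele with loxP sites around exon 3, from which Cre yields a stabilised protein. The 3 wild-type samples were YFP+ cells sorted from the same Isl1-cre domain, without stabilised β-catenin. Recombination follows past or present Isl1 expression, which is not limited to the heart field, and the number of embryos behind a sample is not stated. The p-values therefore measure the spread between these samples, and in sorted bulk RNA a larger number of epithelial cells cannot be told apart from more RNA per cell.

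The Krt8 and Krt18 proteins pair to form the intermediate filaments of simple epithelia, and Krt19 can take the place of Krt18 as the type I partner. E-cadherin and P-cadherin (Cdh1 and Cdh3) hold neighbouring cells together through calcium-dependent contacts and bind β-catenin on their cytoplasmic side, so that the protein stabilised in these mutants is both a Wnt effector and a part of the epithelial junction. Grainyhead-like factors switch on junction genes in epithelia, p63 (Trp63) is needed for stratified epidermis, and Tfap2c acts in early surface ectoderm.

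The arrays correlated across genes at 0.979 to 0.989. Ctnnb1, the targeted gene, read 12.93, 12.99 and 13.00 on the mutant arrays 1, 2 and 3 and 12.99, 12.95 and 13.00 on the wild-type arrays, on the log2 scale of the deposited values. Whether its probe set covers exon 3 is not known here, so this does not check the genotype. All 13 marker genes of cardiac progenitors and young heart muscle were above the background level on at least 1 array. This level, 4.85, is the point below which 95% of 27 bacterial control probe sets had their mean. Nkx2-5, a heart field transcription factor, read 4.17, 4.34 and 4.56 in mutant and 4.89, 4.95 and 4.63 in wild-type cells, near background throughout. The sexes were mixed unevenly: Y-linked Kdm5d was at 8.67, 9.92 and 9.08 on the mutant arrays and at 9.84, 2.82 and 3.52 on the wild-type arrays.

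All 10 epithelial genes had a higher mean in mutant than in wild-type cells, with differences from 0.46 to 1.89 on the log2 scale and a median of 0.80. None passed in limma with Benjamini-Hochberg adjustment over all genes at 0.05, where the smallest adjusted p among them was 0.133. Of all genes, 44.7% had a higher mean in the mutant, the median difference was −0.03, and 12 genes (0.066%) passed in the upward direction. Values of the mutant and wild-type arrays did not overlap for 5 of the 10 (Krt19, Cdh3, Grhl2, Grhl3 and Tfap2c), against 8.64% of all genes in this direction. The same 5 had an unadjusted p under 0.05, as did 6.76% of all genes in the upward direction. For Cdh3, Grhl2 and Tfap2c, the groups were apart only on the probe set that stands for the gene.

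**Figure D1:**
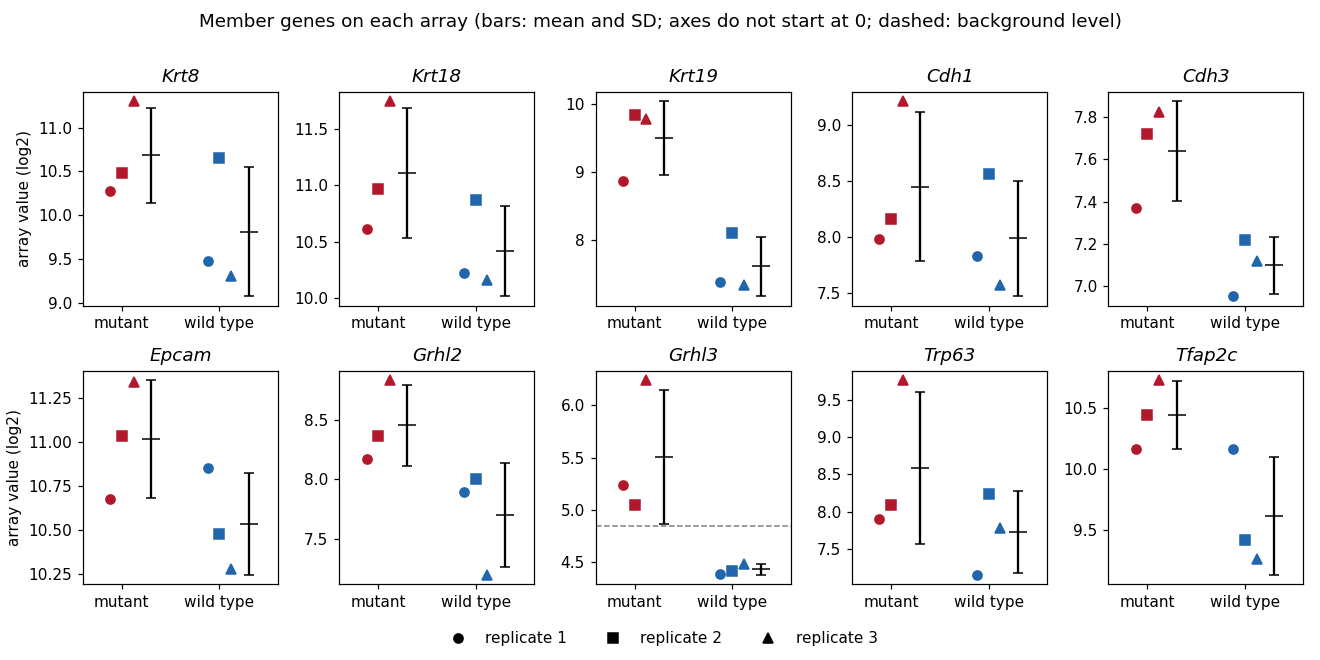
Values (log2) of the 10 genes on each array, with mutant arrays on the left and wild-type arrays on the right of each panel, symbols for the replicate number, and the mean and SD of 3 arrays beside them. The groups are apart for Krt19, Cdh3, Grhl2, Grhl3 and Tfap2c, and mutant array 3 is the highest of all 6 for 9 of the 10 genes.

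Krt19 had the largest difference of the 10. It read 8.87, 9.84 and 9.79 on the mutant arrays 1, 2 and 3, against 7.39, 8.11 and 7.34 on the wild-type arrays. Every mutant array lay above every wild-type array. The means were 9.50 ± 0.54 in mutant and 7.61 ± 0.43 in wild-type cells (SD, n = 3 each), a difference of 1.89 (SE 0.31, 95% interval 1.15 to 2.62), or 3.70-fold, with an adjusted p of 0.133 in limma. Leaving out mutant array 1, which reads lowest of the mutant arrays for Krt19, gave 2.20 and brought it past the threshold (adjusted p = 0.0365). Over the 14 alternatives its adjusted p ran from 0.0365 to 0.381.

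The partners Krt8 and Krt18 followed a common course across the arrays. Krt8 read 10.27, 10.48 and 11.30 on the mutant arrays and 9.48, 10.65 and 9.31 on the wild-type arrays. Krt18 read 10.61, 10.97 and 11.74 on the mutant arrays and 10.22, 10.87 and 10.16 on the wild-type arrays. Wild-type array 2 stood within the mutant range for both, so the groups overlapped. The differences were 0.87 for Krt8 (SE 0.40, 1.83-fold, adjusted p = 0.460) and 0.69 for Krt18 (SE 0.32, 1.61-fold, adjusted p = 0.457), with 95% intervals that reach from below 0 to 1.81 and 1.43. Without mutant array 3 they were 0.56 and 0.37. Across the 6 arrays the Krt8 and Krt18 values correlated at 0.97, and at 0.94 once the group means were removed (a description over 6 arrays). The genes are neighbours on chromosome 15 with no protein-coding gene listed between them.

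Among the adhesion genes, only Cdh3 (P-cadherin) separated the groups, on the probe set that stands for the gene. There it read 7.37, 7.72 and 7.82 in mutant cells, against 6.96, 7.22 and 7.12 in wild-type cells, a difference of 0.54 (SE 0.16, 1.45-fold, adjusted p = 0.295). A separate Cdh3 probe set gave −0.02, with overlapping groups. Cdh1, the neighbour of Cdh3 on chromosome 8, read 7.98, 8.16 and 9.21 on the mutant arrays and 7.83, 8.56 and 7.57 on the wild-type arrays. For Cdh1 a single mutant array stood above all wild-type arrays, and the difference of 0.46 (SE 0.37, 95% interval −0.40 to 1.33, adjusted p = 0.646) was 0.083 without mutant array 3, 0.25 without wild-type array 3, 0.70 without mutant array 1 and 0.75 without wild-type array 2. Epcam, a homophilic adhesion molecule found on most epithelia, read 10.68, 11.03 and 11.34 in mutant cells and 10.85, 10.48 and 10.28 in wild-type cells. Its difference was 0.48 (SE 0.22, adjusted p = 0.452), and wild-type array 1 lay above mutant array 1. Without mutant array 3 the Epcam difference was 0.32.

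The grainyhead-like pair differed in level against background. Grhl3 read 5.24, 5.04 and 6.24 in mutant cells, all above the background level of 4.85, and 4.39, 4.42 and 4.48 in wild-type cells, all below it. The measured difference was 1.08 (SE 0.29, adjusted p = 0.259). Because the wild-type readings are only a bound, the mutant mean of 5.51 is given as at least 1.58-fold above that background. Without mutant array 3 the measured difference was 0.71 and the bound 1.22-fold. Grhl2 was above background on all arrays, at 8.17, 8.37 and 8.84 in mutant cells and 7.90, 8.002 and 7.19 in wild-type cells. Its groups did not overlap, with a difference of 0.76 (SE 0.26, 1.70-fold, adjusted p = 0.350).

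Tfap2c and Trp63 complete the regulators. Tfap2c read 10.17, 10.44 and 10.73 on the mutant arrays and 10.16, 9.42 and 9.26 on the wild-type arrays. The groups were apart for Tfap2c only by the narrowest margin, since mutant array 1 and wild-type array 1 read nearly the same, and the difference was 0.83 (SE 0.26, 1.78-fold, adjusted p = 0.316). Trp63 read 7.91, 8.09 and 9.76 in mutant cells and 7.16, 8.24 and 7.78 in wild-type cells. Its difference of 0.86 (SE 0.50, 95% interval −0.31 to 2.03, adjusted p = 0.542) rested on mutant array 3, without which it was 0.27.

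Promoters of 4 of the 10 genes, from 250 bases before to 50 after the RefSeq start in GRCm38.p6, are shown because they could be searched for sites of the regulators named here and of factors that oppose them. Capitals mark CAGGTG (read as CACCTG on the other strand), the E-box that Snail and Zeb repressors of epithelial genes bind, and in Krt18 also GCCNNNGGC, a form of the TFAP2 site. The windows are chr15:102004293-102004592 (minus strand) for Krt8, chr15:102027966-102028265 (plus strand) for Krt18, chr17:87635729-87636028 (plus strand) for Epcam and chr4:135573583-135573882 (minus strand) for Grhl3.
Krt8: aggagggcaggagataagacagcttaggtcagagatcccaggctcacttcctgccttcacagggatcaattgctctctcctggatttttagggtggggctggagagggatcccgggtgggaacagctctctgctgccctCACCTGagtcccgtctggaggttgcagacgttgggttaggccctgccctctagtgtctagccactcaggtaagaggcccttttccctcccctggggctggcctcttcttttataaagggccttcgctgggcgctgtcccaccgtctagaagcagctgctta
Krt18: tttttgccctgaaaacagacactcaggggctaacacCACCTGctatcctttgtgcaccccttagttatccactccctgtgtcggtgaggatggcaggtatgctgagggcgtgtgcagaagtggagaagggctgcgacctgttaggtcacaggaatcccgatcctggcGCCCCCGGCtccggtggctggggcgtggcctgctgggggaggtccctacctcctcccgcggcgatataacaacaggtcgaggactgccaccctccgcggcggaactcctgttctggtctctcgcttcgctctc
Epcam: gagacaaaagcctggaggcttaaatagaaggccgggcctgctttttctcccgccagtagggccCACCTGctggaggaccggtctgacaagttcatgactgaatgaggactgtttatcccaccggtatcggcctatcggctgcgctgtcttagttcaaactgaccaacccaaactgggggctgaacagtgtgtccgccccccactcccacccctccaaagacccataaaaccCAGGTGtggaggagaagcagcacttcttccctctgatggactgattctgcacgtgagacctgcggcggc
Grhl3: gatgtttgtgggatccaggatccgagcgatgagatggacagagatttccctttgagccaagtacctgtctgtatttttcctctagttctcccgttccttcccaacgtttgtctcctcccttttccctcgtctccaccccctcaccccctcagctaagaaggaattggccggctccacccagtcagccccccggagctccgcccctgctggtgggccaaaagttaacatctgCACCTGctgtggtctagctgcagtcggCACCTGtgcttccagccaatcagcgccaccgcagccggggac
CAGGTG occurred in all 4 windows, at −111 in Krt8, −214 in Krt18, −187 and −19 in Epcam and −19 and 9 in Grhl3 (first base of the match, counted from the start site). It is common, being present in 20.2% of the 32851 promoters of the table. The TFAP2 form, at −83 in Krt18, was in 16.6% of all promoters. The grainyhead-like site AACCGGTT (0.146% of promoters) and the TCF/LEF forms CTTTGAT (3.73%) and CTTTGAA (5.14%) were in none of the 4 windows. Both strands were searched, none of the marked matches overlapped another, and a match describes letters only, not a bound site.

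Over the mutant arrays most of the 10 genes ran alike, with array 3 highest for 9 and array 1 lowest for 9. Mutant array 3 read above every wild-type array for all 10 genes, mutant array 2 for 7 and mutant array 1 for 5. As an average over the 10 genes of the deviation from each gene's wild-type mean, the arrays stood at 0.43, 0.72 and 1.38 for mutant 1, 2 and 3 and at −0.06, 0.30 and −0.24 for wild type 1, 2 and 3. Without mutant array 3 the median difference of the 10 genes was 0.50 in place of 0.80. Among wild-type arrays, array 2 read highest for 7 genes (the 3 keratins, Cdh1, Cdh3, Grhl2 and Trp63), array 1 for Epcam and Tfap2c, and array 3 for Grhl3.

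**Figure D2:**
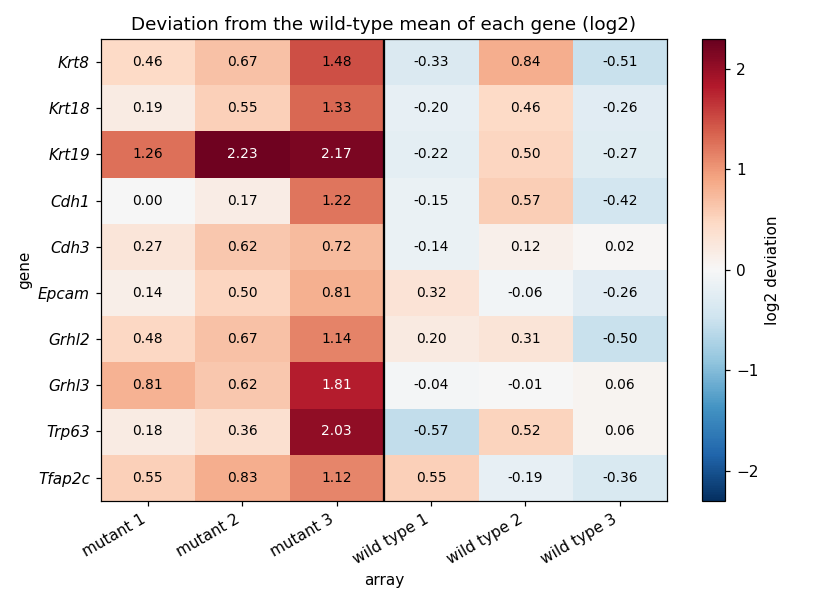
Deviation of each gene on each array from that gene's wild-type mean (log2), with mutant arrays left of the line and wild-type arrays right of it. Krt19 is above 1 on all 3 mutant arrays, 7 other genes only on mutant array 3, and wild-type array 2 is the highest wild-type array for the keratins, Cdh1 and Trp63.

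The course of the genes was also compared by correlations across the 6 arrays. These share the group difference and are given as a description without a test. Over the 45 pairs, r ran from 0.46 to 0.97 with a median of 0.81, and with group means removed from 0.05 to 0.98 with a median of 0.67. With group means removed, Krt18 and Cdh1 stood at 0.98 and Krt8 and Cdh1 at 0.96. Tfap2c and Epcam, both highest on wild-type array 1, stood at 0.94 with each other, while Tfap2c stood at 0.12 with Krt8, 0.05 with Cdh3 and 0.07 with Trp63.

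The 22 probe sets were also tested singly, over all 45037 probe sets that are not controls. Of the 22, 21 had a higher mean in mutant cells, 7 had groups that did not overlap (all higher, as for 8.01% of all probe sets) and 0 passed (smallest adjusted p = 0.170 in limma), as did 0% of all probe sets in the upward direction. At an unadjusted p under 0.05 there were 8 of the 22, and 2748 higher and 2098 lower probe sets in all. The 3 Krt8 probe sets gave 1.03, 1.33 and 0.87, and the one at 1.33 had groups that did not overlap, at 10.02, 10.24 and 11.28 in mutant and 8.89, 9.76 and 8.89 in wild-type cells. This probe set and the one that stands for the gene carry the suffix _x_at, Affymetrix's mark for probes that may also bind similar sequences. The Tfap2c probe sets gave 0.73, 0.83 and 0.92, and those of Epcam 0.48 and 0.43. Among the Tfap2c and Epcam probe sets, only the Tfap2c one at 0.83, which stands for the gene, had groups that did not overlap. It carries the suffix _s_at, and the Epcam probe set at 0.43 carries _x_at. Binding to similar sequences was not tested for any of these probe sets.

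Other genes gave less even readings. A separate Cdh3 probe set, above background on all arrays, read 6.56, 6.60 and 6.70 in mutant and 6.66, 6.85 and 6.41 in wild-type cells, a difference of −0.02 against 0.54 for the one that stands for the gene, and the mean of both gave 0.26. For Grhl2 3 probe sets gave 0.61, 0.65 and 0.76 and the remaining one 0.09. Only the Grhl2 probe set at 0.76, which stands for the gene, had groups that did not overlap. Trp63, whose gene gives long and short protein forms from different start sites, had probe sets at 0.86, 0.51 and 0.08, and one below background on all arrays, and their mean gave 0.45. Of the Trp63 probe sets, only the one below background had groups that did not overlap. Which transcripts each probe set reads is not given in the sources used here.

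**Figure D3:**
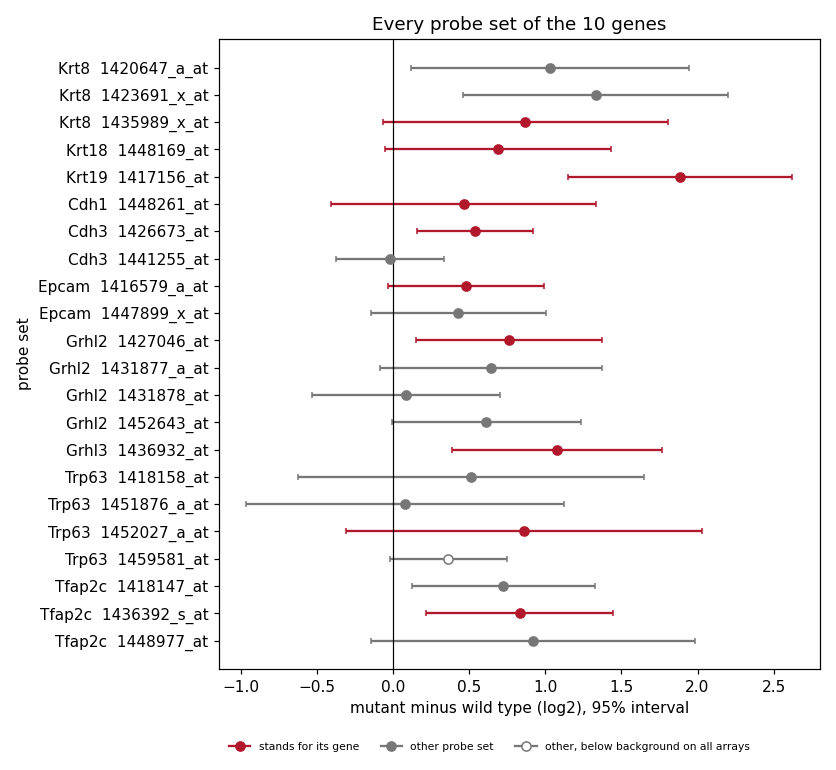
Mutant minus wild-type difference (log2) with its 95% interval for each of the 22 probe sets, from the fit over all probe sets. Points in red stand for their gene, and 1 Cdh3 probe set at −0.02 is the only one below 0.

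Other genes of epithelial junctions and surfaces also had mostly higher values. Of 26 listed, 25 were measured, 22 had a higher mean in mutant cells, 10 had groups that did not overlap (all higher, against 8.64% of all genes) and none passed, with a median of 0.52. St14 (matriptase, a membrane protease) read 7.62, 7.70 and 8.31 in mutant and 7.29, 6.94 and 6.85 in wild-type cells, a difference of 0.86 (SE 0.22, adjusted p = 0.240 in limma). Its inhibitor Spint1 stood at 0.72 (SE 0.19, adjusted p = 0.241) and the tight junction protein Ocln at 0.95 (SE 0.26, adjusted p = 0.256). In this list too, mutant array 3 read highest of all 6 arrays most often, for 14 of 25 genes, mutant array 2 for 7, and mutant array 1 for none.

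Keratins outside the 3 members were split in direction. All 10 listed were measured, 5 had a higher and 5 a lower mean, and the median was 0.00. Most of them read near background, which limits this split. Krt7 and Krt5 read highest of the list, and both had a higher mean in mutant cells. Their differences were 0.57 (SE 0.44) and 0.10 (SE 0.19), with overlapping groups. The 3 with the smallest p were Krt15 at −0.47 (SE 0.23), Krt80 at −0.31 (SE 0.15), the one gene of the list whose groups did not overlap (lower, as for 9.18% of all genes), and Krt17, below background on all arrays. Krt15 was at −0.27 without wild-type array 2, and Krt80 at −0.17 without mutant array 3, where it read 4.65, below background. The difference between this list and the 10 genes was not tested.

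Further regulators of epithelium and ectoderm were mixed. Of 22 listed, 18 were measured, with 12 higher and 6 lower means, a median of 0.25 and none passed. Groups did not overlap for 4 higher and 2 lower genes, against 8.64% and 9.18% of all genes. Msx2, a homeobox factor induced by BMP and Wnt signals, stood at 0.83 (SE 0.14, adjusted p = 0.133 in limma), with 8.30, 8.53 and 8.41 in mutant against 7.39, 7.65 and 7.69 in wild-type cells. The mean of the Msx2 probe sets gave 0.50. The Tfap2c relatives Tfap2a and Tfap2b, which neural crest also expresses, stood at 0.93 (SE 0.27) and 0.58 (SE 0.16).

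Factors of mesenchyme, several of which repress epithelial genes, were measured for all 12 listed. Of these, 8 had higher means, the groups did not overlap for 2 (both higher, against 8.64% of all genes), none passed, and the median was 0.15. Snai2, an E-box repressor of Cdh1 that also marks neural crest, read 9.90, 11.08 and 10.35 in mutant and 9.14, 9.17 and 9.61 in wild-type cells, a difference of 1.14 (SE 0.30, adjusted p = 0.241 in limma). Fn1 (fibronectin) stood at 0.38 (SE 0.16), or 0.60 with its most variable probe set, and Twist1 at 0.27 (SE 0.15). Among 10 catenins and cadherin partners, 8 had higher means with a median of 0.16, 3 had groups that did not overlap (all higher, against the same 8.64%), and none passed. Ctnna2, the α-catenin best known from neurons, read 6.77, 6.66 and 6.86 in mutant and 5.92, 5.67 and 5.61 in wild-type cells, a difference of 1.03 (SE 0.14, adjusted p = 0.0752). Ctnnd2 stood at 0.78 (SE 0.23), or 0.52 without wild-type array 2 and 0.42 as the mean of its probe sets. The endothelial cadherin Cdh5 stood at 0.60 (SE 0.24), or 0.36 without wild-type array 3.

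**Figure D4:**
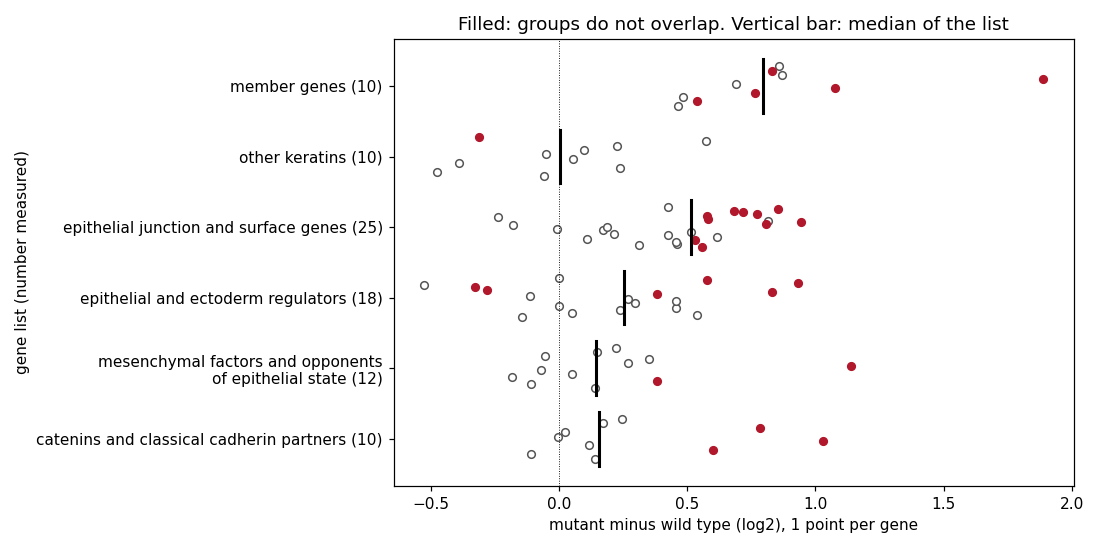
Mutant minus wild-type difference (log2) of each measured gene in the 10 member genes and 5 further lists, with filled points where the 3 mutant and 3 wild-type arrays do not overlap and a bar at the median. The medians are 0.80 for the member genes, 0.00 for other keratins, 0.52 for junction and surface genes, 0.25 for regulators, 0.15 for mesenchymal factors and 0.16 for catenins and partners.

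Markers of other epithelia and cell types moved along with these arrays in different ways, and their part in the values above was not tested. Endoderm carries Krt8, Krt18, Cdh1 and Epcam as well. Of 11 pharyngeal and gut endoderm genes measured 3 had higher and 8 lower means (median −0.24), and Trh was below background on all arrays. Groups did not overlap for 2 higher and 2 lower genes of this list, against 8.64% and 9.18% of all genes. Sox17, a marker of both endoderm and endothelium, stood at 1.80 (SE 0.31, adjusted p = 0.140 in limma), and Cxcr4 at 0.27 (SE 0.13). The 2 lower genes were Shh at −1.26 (SE 0.20, adjusted p = 0.131 in limma) and Foxa1 at −1.07 (SE 0.33). The log2 of the summed level of the 11 genes was 11.79, 11.94 and 11.75 on the mutant arrays and 11.72, 11.91 and 11.76 on the wild-type arrays. Cxcr4 is the largest part of this sum, at 11.18, 11.30 and 11.02 on the mutant arrays and 10.98, 10.81 and 10.92 on the wild-type arrays. The sum therefore says little about the dimmer genes, most of which had lower means. The 9 visceral endoderm genes measured, of which 2 had higher means, had summed levels of 9.16, 10.60 and 11.27 on the mutant arrays and 9.30, 12.58 and 12.18 on the wild-type arrays, so that array 1 of each group stood low and wild-type array 2, high for the keratins, stood highest. Of 7 neural crest genes 6 had higher means (median 0.44). Groups did not overlap for 4 of the 7, all higher, against 8.64% of all genes. Their summed levels were 11.98, 12.22 and 12.28 in mutant and 11.64, 11.44 and 11.44 in wild-type cells. All 8 neuronal genes had lower means (median −0.77), and groups did not overlap for 2 of them, against 9.18% of all genes. The summed levels of these 8 were 12.67, 11.47 and 11.29 in mutant and 12.46, 12.27 and 12.88 in wild-type cells.

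Of 7 placental and trophectoderm genes measured 4 had higher means, Eomes and Elf5, which define trophoblast progenitors, were below background on all arrays, Hand1 read between 6.47 and 6.97, and Cdx2 read 7.32 on mutant array 2 and between 5.14 and 5.43 on the other arrays. The summed level was 10.63, 11.002 and 11.30 in mutant and 10.68, 10.27 and 9.93 in wild-type cells. Most of this sum is Tfap2c, itself a member gene, at 10.17, 10.44 and 10.73 in mutant and 10.16, 9.42 and 9.26 in wild-type cells. Tfap2c, Gata3 and Krt7 of that list are expressed in surface ectoderm too. The 13 genes of cardiac progenitors and young heart muscle had 4 higher and 9 lower means (median −0.46). Groups did not overlap for 4 lower genes and for no higher gene, against 9.18% and 8.64% of all genes. Summed levels were 12.32, 12.40 and 12.54 in mutant against 12.88, 13.17 and 12.80 in wild-type cells. The heart muscle genes Tnnt2, Myh6 and Actc1 make up most of this sum. The 4 higher genes were Fgf8 at 0.47, Tbx1 at 0.41, Mef2c at 0.03 and Fgf10 at 0.01. Isl1 itself read 8.72, 8.61 and 7.49 on the mutant arrays, lowest on array 3, where the epithelial genes read highest, and 9.24, 9.36 and 9.77 on the wild-type arrays (difference −1.18, SE 0.33, adjusted p = 0.269 in limma).

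Over the 6 arrays, the genes whose values ran most like the mean of the 10 were sought among 2599 other genes with a mean above background and a range of at least 1 log2 unit. Sdk1, an adhesion protein of the immunoglobulin family, had the highest Pearson r (0.991), followed by the cytochrome oxidase subunit gene Cox6b2 (0.990), the scavenger receptor gene Stab1 (0.986), 3830417A13Rik (0.986) and the calcium-binding S100a6 (0.985). S100a6 read 6.62, 6.73 and 7.18 on the mutant arrays and 6.16, 6.33 and 5.90 on the wild-type arrays. With 6 arrays and this many candidates, high values of r are a ranking only.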

How the data were processed

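Each deposited value is the log2 of a probe set's signal on 1 array. The base was read from the values, and how the authors corrected, summarised and normalized them was not given in the sources used here. Array medians lay between 6.47 and 6.50, so the values were used without scaling. Symbols of GEO's platform annotation were brought up to date by gene identifier from RefSeq (34741 of 34945 single-gene probe sets matched). The probe set with the highest mean stood for its gene, and no dim gene was removed.

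The comparison used limma 3.58.1 in R 4.3.3 (lmFit, eBayes, two-sided, no covariate), Benjamini-Hochberg adjusted over 18193 genes or over 45037 probe sets, at 0.05. On simulated data with 200 changed genes, the fit recovered 73.3% at a change of 1 and 98.7% at a change of 2. The mean number of false calls was 11.6 over 20 runs. These values hold for the simulated setting only and do not measure what the fit recovers in these data. Exact permutation of 3 against 3 arrays cannot go below p = 0.1, and the number of arrays limits the precision. The 10 genes and the lists were chosen with earlier results of these data known. Of each list, the 3 genes with the smallest p are named, and other names, such as Nkx2-5 and Isl1, are checks. Listed genes beyond the numbers measured were not analysed here. Alternatives changed the normalization, the dim-gene filter, the choice of probe set, the prior, array weights, the threshold, a replicate block, or left out an array.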

Additional observations from a re-analysis of the deposited data

How the results depend on the processing

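All 10 genes tested kept a higher mean in the mutant under the 14 alternatives to the fit (the 9 tested once the dimmest 40% of genes were removed, which left out Grhl3), a count added after the data were seen. The exception among probe sets was a separate Cdh3 probe set, at −0.0213. The number of the 10 genes called was 0 with 12 genes called in all, and ran from 0 to 1 when each array was left out, the 1 being Krt19 without mutant replicate 1, when 81 higher and 11 lower genes were called in all. It was 0 under every other alternative run, the threshold of 0.01 included. The median difference, 0.80, ran from 0.50 without mutant replicate 3 to 0.96 without mutant replicate 1, was 0.59 without wild-type replicate 3, and was 0.61 with the mean of probe sets. Over all genes 0 were called without mutant replicate 2, mutant replicate 3 or wild-type replicate 2, 4 and 2 without wild-type replicates 1 and 3, 6 with median centring, and 1 with the most variable probe set or the mean of probe sets. With replicate number as a block the median difference was 0.80 and 0 of the 10 genes and 0 of all genes were called. The labels name no pairing of same-numbered arrays, and whether such arrays were handled together was not tested. Their deviations from the group means correlated at 0.11, −0.08 and −0.02. Mutant 1 correlated best with wild type 1, mutant 2 with wild type 3 and mutant 3 with wild type 2. Array 1 of each group stood low for the summed level of the visceral endoderm genes, of which Afp is the largest part on the other arrays. The number of genes called in each further list stayed at 0 without the dimmest 40% of genes. Readings near background limit Grhl3, 1 Trp63 probe set and most of the other keratins listed.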
